A study of Mus musculus with 9 samples.

Results

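The adipose progenitor surface and lineage markers described here are 10 mouse genes, taken by symbol from a table of 41761 genes, and each was found as 1 protein-coding row. They are the PDGF receptor genes Pdgfra and Pdgfrb, the surface antigens Ly6a and Cd34, the interstitial progenitor markers Dpp4 and Pi16, the preadipocyte factor Dlk1, the tissue factor gene F3, the homeobox gene Meox2 and the fibroblast protease gene Fap. They were measured by bulk RNA sequencing in primary cells of inguinal white adipose tissue from wild type C57 mice, given as C57BL/6J in the design text. Stromal vascular fraction cells were grown to confluence, differentiated towards white adipocytes and given sodium alginate, the salt of a seaweed polysaccharide, at 0, 50 or 100 µM, with 3 libraries per dose. At every dose, 0 µM included, the medium held DMEM/F-12 with 10% fetal bovine serum, 1 µg/ml insulin, 1 µM dexamethasone, 0.5 mM IBMX (a phosphodiesterase inhibitor) and, per the treatment protocol, 1 µM rosiglitazone, a PPARG agonist. The design text does not list rosiglitazone. After day 2 the medium held insulin, with rosiglitazone per the protocol. Collection was on day 6 by the titles and day 7 by the protocol, and the age of the mice is not given. The titles of the 100 µM libraries state 50 µM, but their treatment label and library name state 100 µM, which was used. The labels call the cells mature white adipocytes, and the adipocyte genes Adipoq, at 594 FPKM, and Plin1, at 209 FPKM, were high without alginate. Whether libraries of 1 dose are separate cultures or mice is not stated, so the p-values reflect spread among libraries that may be technical only.

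Fat cells arise from stromal progenitors that lie along vessels and in the connective tissue sheets of the fat pad. PDGF receptor alpha marks most of these progenitors, PDGF receptor beta is also carried by mural cells, and Cd34 and the Ly6a product Sca-1 are used with it to sort them. Dpp4 and Pi16 mark an early, interstitial state, Dlk1 a preadipocyte state that is lost on differentiation, and F3 a stromal subset described as holding back the differentiation of its neighbours. In differentiating cultures these genes are read as marks of the cells that have not become adipocytes.

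Rebuilt whole reads ranged from 14019672 to 17094467 per library. Values are FPKM, fragments per kilobase of counted gene length, scaled to library depth, which the authors had also adjusted by a factor per library. On the second principal component of all tested genes, 50 µM library 3 stood apart at -19.1, against -4.62 to 11.4 for the others, so the tests and dose shares that rest on the 50 µM libraries are also given without it. In bulk RNA, fewer cells of a type and less RNA per cell cannot be told apart.

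Levels of the 10 genes without alginate spanned a wide range on the FPKM scale. This scale divides by counted gene length, 10024 bases for Pdgfra and 2360 for Meox2, so the order of genes rests partly on it. Cd34 had more rebuilt reads at 0 µM than Meox2, 1180 against 784, with a lower FPKM. Ly6a was the highest, at 524 ± 31.8 FPKM (SD, n = 3), followed by F3 at 141 ± 2.33 FPKM. Pdgfra (52.1 ± 1.92 FPKM) and Pdgfrb (49.4 ± 1.04 FPKM) came next, with ranges that lay close together without overlap, 50.3 to 54.1 and 48.2 to 50.1 FPKM. Meox2 stood at 7.49 ± 0.309 FPKM. Cd34 (3.66 ± 0.236 FPKM) and Fap (3.60 ± 0.591 FPKM) overlapped. Pi16 was at 1.61 ± 0.224 FPKM, and Dlk1 (0.423 ± 0.0522 FPKM) and Dpp4 (0.333 ± 0.104 FPKM), which overlapped, were under 1 FPKM in all 9 libraries. At 100 µM the order changed at 2 places, with Pdgfrb (34.8 to 36.6 FPKM) above Pdgfra (31.4 to 33.6 FPKM) and Fap (3.33 to 3.81 FPKM) above Cd34 (2.58 to 2.90 FPKM). The panels of marker levels show each library.

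**Figure D1:**
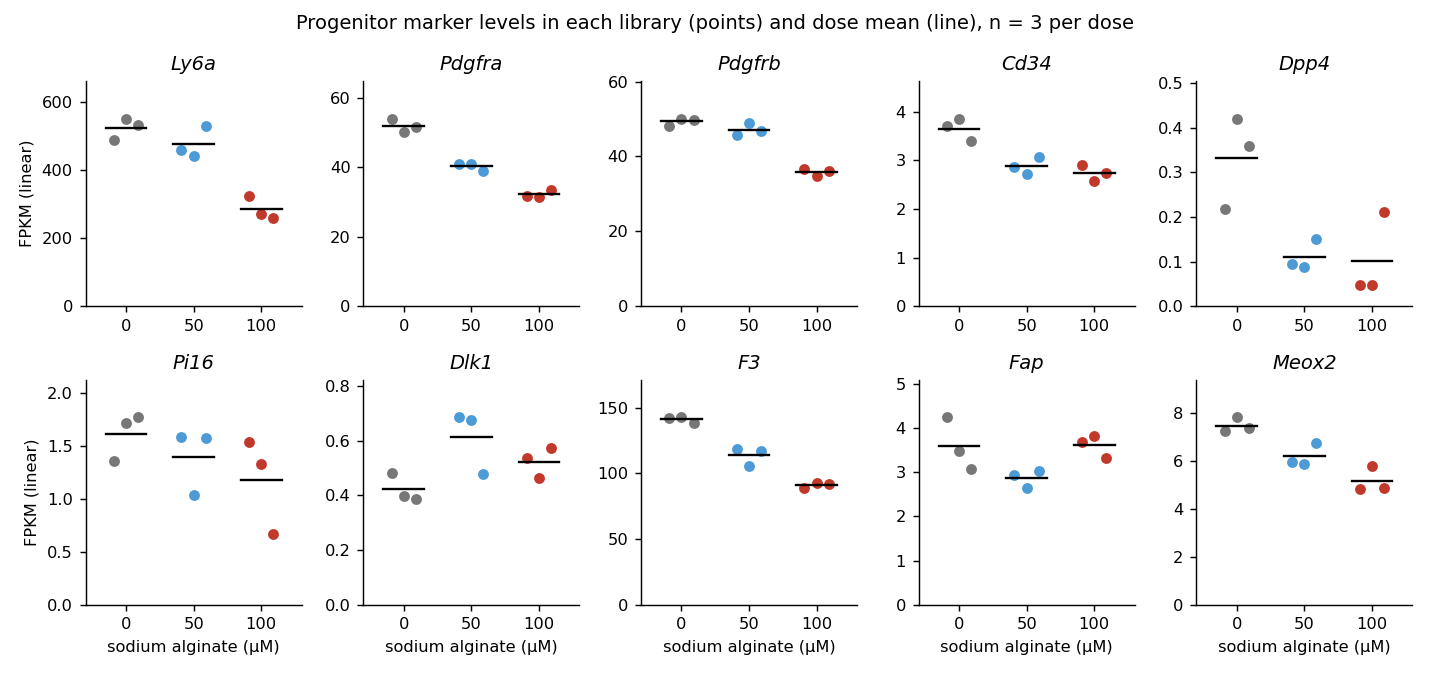
FPKM of the 10 marker genes (linear vertical axes, 1 per gene) in each of the 9 libraries (points) by sodium alginate dose in µM, with the mean of 3 libraries as a line. Ly6a, F3, Pdgfra, Pdgfrb, Meox2, Cd34 and, by a narrow margin, Dpp4 were lower in every 100 µM library than in every 0 µM library. Dpp4 and Dlk1 stayed under 1 FPKM.

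Sequence upstream of the gene start, from RefSeq (GRCm38.p6), was used for 7 of the 10 genes. No window was used for Pdgfrb, Ly6a or Fap, which does not show that RefSeq lacks one. The 250 bases before the start are printed for F3, Pdgfra and Meox2, chosen after their values were seen. Cd34, Pi16, Dpp4 and Dlk1 also have a window and are not printed. Capitals mark matches, on either strand, to 5 patterns whose letters are given after the sequences, and no match overlapped another.
F3, plus strand, chr3:121723287-121723536: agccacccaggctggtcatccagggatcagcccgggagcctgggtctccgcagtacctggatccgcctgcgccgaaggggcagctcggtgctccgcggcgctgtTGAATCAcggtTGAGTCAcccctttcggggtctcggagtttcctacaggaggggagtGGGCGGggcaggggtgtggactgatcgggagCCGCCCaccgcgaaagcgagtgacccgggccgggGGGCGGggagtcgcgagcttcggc
Pdgfra, plus strand, chr5:75152001-75152250: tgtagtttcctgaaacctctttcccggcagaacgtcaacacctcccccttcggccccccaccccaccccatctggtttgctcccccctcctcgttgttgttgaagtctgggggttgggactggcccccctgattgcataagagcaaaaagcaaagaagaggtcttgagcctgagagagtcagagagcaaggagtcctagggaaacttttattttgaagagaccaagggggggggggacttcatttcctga
Meox2, plus strand, chr12:37108290-37108539: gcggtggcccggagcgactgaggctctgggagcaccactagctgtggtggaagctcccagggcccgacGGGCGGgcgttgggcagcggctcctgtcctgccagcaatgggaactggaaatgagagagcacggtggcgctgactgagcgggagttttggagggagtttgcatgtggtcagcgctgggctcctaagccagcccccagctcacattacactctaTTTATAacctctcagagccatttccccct
F3 held 2 AP-1 matches, starting 146 and 135 bases before the start, and 3 GC boxes, starting 89, 58 and 24 bases before it. Meox2 held 1 GC box and, on the minus strand, 1 TATA match that begins 29 bases before the start. The Pdgfra window held none of the 5 patterns. Shares are of 32851 windows of the same length. The AP-1 pattern, TGANTCA, was held by 6.75% of them. The SP1 GC box, GGGCGG, was held by 32.7%, the TATA box, TATAAA, by 12.4% and the TEAD pattern, GGAATG, by 12.6%. The direct repeat bound by PPAR and RXR, AGGTCANAGGTCA, was held by 0.0335%. None of the 7 windows held the direct repeat, and the Cd34, Pi16 and Dlk1 windows held no match. In the Dpp4 window the TATA and TEAD patterns each matched at 1 place. These are matches of letters, and no binding was measured.

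At 100 µM against 0 µM, 6 of the 8 tested markers fell and none rose. They were Ly6a, Pdgfra, F3, Meox2, Pdgfrb and Cd34, and Fap and Pi16 did not pass the test. Dpp4 and Dlk1 were below the filter (at least 1 FPKM in at least 3 libraries) and were not tested. The test was limma on log2(FPKM + 1) with a Benjamini-Hochberg adjusted p below 0.05, over 12635 genes. In this comparison 15.6% of all tested genes were called lower and 18.3% higher. The counts of each list at 100 µM, given below, are to be read beside these shares. The median log2 fold change was -0.46 over the 8 markers and 0.01 over all genes. The split of all genes depends on scaling, with 2314 higher and 1965 lower as deposited, 1630 and 2633 on the TPM scale, 1731 and 2658 with the authors' factor removed, and 2103 and 2117 after quantile normalization. The same 6 markers were called lower under each of these scalings.

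**Figure D2:**
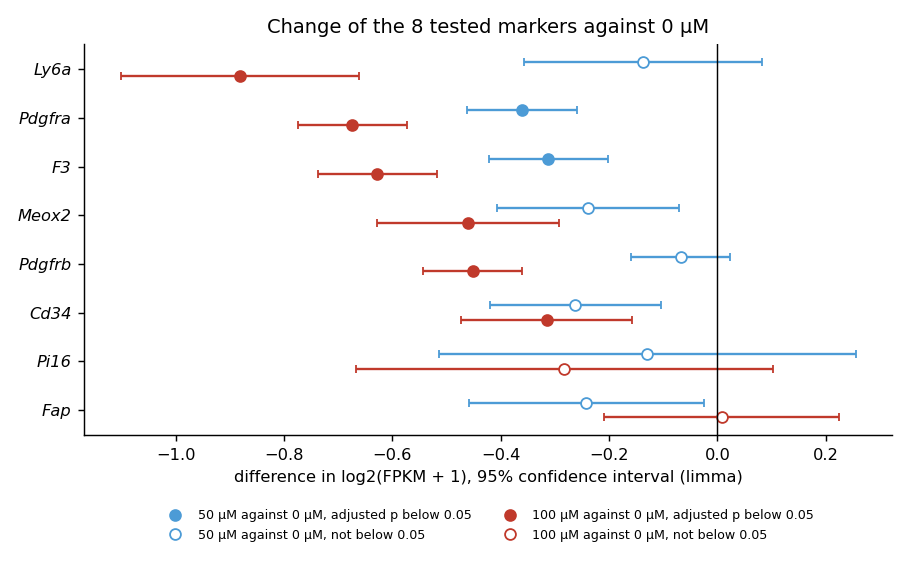
Difference in log2(FPKM + 1) of the 8 tested markers at 50 µM (blue) and 100 µM (red) against 0 µM, with 95% confidence intervals from limma. Filled points have an adjusted p below 0.05. At 100 µM the points run from -0.88 for Ly6a to 0.01 for Fap, and at 50 µM only Pdgfra and F3 are filled.

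The PDGF receptor genes encode the tyrosine kinase receptors through which platelet-derived growth factors act on mesenchymal cells. Pdgfra was at 54.1, 50.3 and 51.7 FPKM in the 0 µM libraries, 41.0, 41.0 and 38.9 FPKM at 50 µM and 31.8, 31.4 and 33.6 FPKM at 100 µM. The 3 doses did not overlap. At 100 µM it was 38.0% below the control mean, and the log2 fold change was -0.67 ± 0.0448 (SE, adjusted p = 1.70e-05 in limma). Pdgfrb was at 48.2, 50.1 and 49.9 FPKM in the controls, 45.7, 48.8 and 46.8 FPKM at 50 µM and 36.6, 34.8 and 36.1 FPKM at 100 µM. Its 50 µM libraries overlapped the controls and its 100 µM libraries lay below both. The difference at 100 µM was 27.4% of the control mean, and the log2 fold change was -0.45 ± 0.0405 (adjusted p = 5.61e-05 in limma). The ratio of Pdgfra to Pdgfrb within a library was 1.12, 1.00 and 1.04 at 0 µM, 0.898, 0.841 and 0.833 at 50 µM and 0.870, 0.901 and 0.930 at 100 µM. All 6 treated libraries thus had a lower FPKM for Pdgfra than for Pdgfrb, and no control library did. Where this ratio crosses 1 depends on the counted lengths, 10024 bases for Pdgfra and 5481 for Pdgfrb. In rebuilt reads Pdgfra was above Pdgfrb in every library. Control library 1 had 7864 and 3830 reads, and 100 µM library 1 had 5320 and 3345. In control library 2 these genes were nearly equal, at 50.3 and 50.1 FPKM. The ratio was not tested. In the C57BL/6NJ annotation, Pdgfra (MGP_C57BL6NJ_G0030068, chromosome 5, 78303537 to 78349133, plus strand) overlaps the miRNA gene Mir7025 on the same strand and 2 genes on the other, each under 2 FPKM. Pdgfrb (MGP_C57BL6NJ_G0024887) lies on chromosome 18, 62553967 to 62595042, plus strand.

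**Figure D3:**
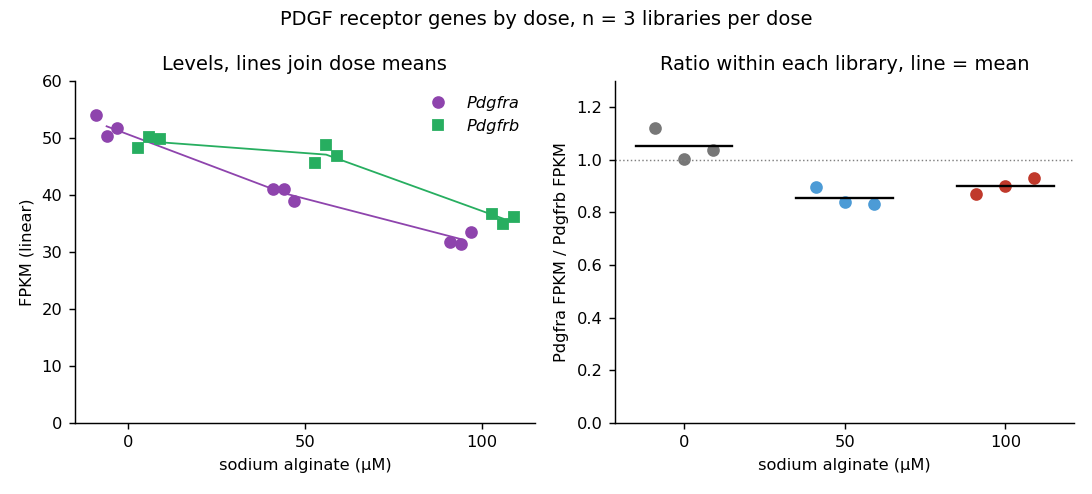
Left, FPKM of Pdgfra (purple circles) and Pdgfrb (green squares) in each library by sodium alginate dose in µM, with lines through the dose means. Right, the ratio of Pdgfra to Pdgfrb within each library, with the mean as a line; the 3 control libraries lie between 1.00 and 1.12 and the 6 treated libraries between 0.833 and 0.930.

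Around the receptors, a list of 20 PDGF pathway genes was tested in full at 100 µM. Of the 18 that are not receptors under study, 1 rose and 4 fell, and the median log2 fold change of these 18 was -0.12. Over all tested genes 18.3% were called higher and 15.6% lower at 100 µM. None of the ligand genes Pdgfa, Pdgfb, Pdgfc and Pdgfd passed, with control means of 2.85, 9.25, 3.63 and 2.77 FPKM. Pdgfc had an adjusted p of 0.0944 as deposited and 0.0464 on the TPM scale. The genes of the proteases that activate latent PDGF ligands fell, Plat from 20.3 ± 0.481 to 13.8 ± 0.582 FPKM and Plau from 21.7 ± 0.668 to 13.4 ± 0.998 FPKM. Among signalling genes, the kinase gene Src fell from 6.20 to 4.74 FPKM and Stat3, a transcription factor, from 40.4 to 35.4 FPKM. Pik3r1, a regulatory subunit of PI3-kinase, rose from 41.8 ± 2.20 to 62.3 ± 4.56 FPKM (limma adjusted p = 0.000329). Shc1, an adaptor, did not pass as deposited (adjusted p = 0.0635) and was called lower on the TPM scale (0.0106). At 50 µM Pdgfra was the single gene of the list that passed.

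Ly6a encodes Sca-1, a lipid-anchored surface protein of many mouse stem and progenitor cells. Its level was 489, 551 and 531 FPKM in the controls, 459.8, 441 and 530.2 FPKM at 50 µM and 325, 269.9 and 259.8 FPKM at 100 µM. The 50 µM libraries overlapped the controls, and every 100 µM library was below every other. It was 45.6% below the control mean at 100 µM, and the log2 fold change was -0.88 ± 0.0974 (adjusted p = 0.000174 in limma), the lowest of the 8 tested markers. Ly6a (MGP_C57BL6NJ_G0022353, chromosome 15, 77640166 to 77645837, minus strand) has close copies, so its reads are uncertain where the counting could split them. Of its family, 5 genes were tested and Ly6e also fell, from 67.6 ± 3.97 to 52.1 ± 2.64 FPKM (limma adjusted p = 0.00183). Plaur, the urokinase receptor gene, went from 8.75 to 6.90 FPKM without passing (adjusted p = 0.0700) and passed on the TPM scale (0.0255). Ly6c1 and Ly6c2 were not analysed here.

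Cd34 encodes a sialomucin of progenitor and vessel surfaces. It measured 3.71, 3.86 and 3.40 FPKM in the controls, 2.86, 2.71 and 3.08 FPKM at 50 µM and 2.90, 2.58 and 2.74 FPKM at 100 µM. Both treated doses lay below all controls and overlapped each other. At 100 µM it was 25.0% below the control mean, and the log2 fold change was -0.32 ± 0.0698 (adjusted p = 0.00734 in limma). At 50 µM it was 21.2% below and did not pass (adjusted p = 0.118), although voom on rebuilt reads called it (0.0368). The adjusted p was 0.145 without 50 µM library 3. Cd34 (MGP_C57BL6NJ_G0017366, chromosome 1, 208485161 to 208508627, plus strand) overlaps the antisense gene Gm16897, which was at 0.0268 to 0.305 FPKM. Cd34 is also carried by endothelial cells, whose markers are given below. Of the other 3 tested genes grouped with it, Selp, an adhesion receptor of platelets and endothelium, fell from 8.02 ± 0.703 to 4.64 ± 0.0499 FPKM, and Podxl and Podxl2 did not pass.

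Dpp4, a surface peptidase, and Pi16, a secreted-type peptidase inhibitor family member, mark interstitial progenitors. Dpp4 had 20, 40 and 34 rebuilt reads at 0 µM, 10, 9 and 15 at 50 µM and 5, 4 and 20 at 100 µM. In FPKM these were 0.217, 0.421 and 0.360, then 0.0935, 0.0882 and 0.150, then 0.0472, 0.0464 and 0.210. Every treated library was below every control library, by a narrow margin for 100 µM library 3. The exact 95% Poisson interval of that library, 0.129 to 0.325 FPKM, overlaps that of control library 1, 0.133 to 0.336 FPKM, and such intervals cover counting error only. An exact two-sided permutation test gave p = 0.1 against 0 µM at each dose, the smallest p that 3 against 3 libraries allow. With no filter on low values, limma gave Dpp4 a log2 fold change of -0.28 at 100 µM (adjusted p = 0.0486) and -0.26 at 50 µM (adjusted p = 0.268), on a scale that understates changes of low genes. Dpp4 (MGP_C57BL6NJ_G0026187) lies on chromosome 2, 63833519 to 63919160, minus strand.

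Pi16 measured 1.36, 1.71 and 1.77 FPKM in the controls, 1.58, 1.04 and 1.57 FPKM at 50 µM and 1.54, 1.33 and 0.668 FPKM at 100 µM. All doses overlapped, and 100 µM library 3 was the lowest. The log2 fold change at 100 µM was -0.28, with a 95% confidence interval of -0.67 to 0.10 (limma adjusted p = 0.238), and -0.10 without that library. Pi16 (MGP_C57BL6NJ_G0023867) lies on chromosome 17, 29988007 to 29998883, plus strand. In its family of cysteine-rich secretory protein genes, 4 others were tested and 3 fell at 100 µM. They were Glipr2 (40.4 to 27.5 FPKM), Crispld2 (6.03 to 4.04 FPKM) and Pi15, which went from 8.94 ± 0.745 FPKM to 6.48 FPKM at 50 µM and 6.56 ± 0.420 FPKM at 100 µM. Pi15 also passed at 50 µM (limma adjusted p = 0.0405), but not on the TPM scale (0.0559) or without 50 µM library 3 (0.102).

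The wider interstitial progenitor list had 9 genes found of 12, of which 5 were tested. At 100 µM, 2 fell, none rose, and the list median was -0.28 on the log2 scale. Anxa3, a phospholipid-binding annexin, was at 21.7 ± 2.09 FPKM without alginate, 20.9 FPKM at 50 µM and 10.7 ± 0.296 FPKM at the highest dose (log2 fold change -0.96, limma adjusted p = 2.81e-05). Il13ra1, an interleukin-13 receptor subunit, fell from 11.7 ± 0.441 to 7.91 ± 0.771 FPKM. Sema3c (2.47 to 2.65 FPKM) and Has1 (2.07 to 1.59 FPKM) did not pass. None of the 5 passed at 50 µM.

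Dlk1, also called Pref-1, encodes a transmembrane relative of the Notch ligands. It had 40, 34 and 33 reads at 0 µM, 66, 62 and 43 at 50 µM and 51, 36 and 49 at 100 µM, or 0.388 to 0.483, 0.479 to 0.686 and 0.464 to 0.573 FPKM. The groups overlapped in every comparison. Mean levels were 0.423, 0.613 and 0.524 FPKM in order of dose, and exact two-sided permutation tests gave p = 0.2 for each dose against 0 µM. The smallest p of this design is 0.1, so it could not pass. With no filter on low values, limma gave Dlk1 a log2 fold change of 0.18 at 50 µM (adjusted p = 0.471, with an unadjusted limma p below 0.05) and 0.10 at 100 µM (adjusted p = 0.482). Dlk1 (MGP_C57BL6NJ_G0020499) lies on chromosome 12, 115078997 to 115089655, plus strand. Of 11 tested genes of the Dlk and Notch list, 4 fell at 100 µM, 0 rose and the median was -0.10. The receptor genes Notch1 (3.72 to 2.96 FPKM) and Notch2 (7.27 to 6.11 FPKM) fell, as did the Notch target Hes1 (41.3 to 31.4 FPKM). Sox9, a transcription factor gene held high by Dlk1 in preadipocytes, fell from 5.38 ± 0.0213 to 3.37 ± 0.395 FPKM (limma adjusted p = 0.00170).

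The list of committed preadipocyte genes, the state that follows the interstitial one, had 11 tested genes besides Dlk1. At 100 µM 6 rose and 2 fell, with a median of 0.20. Fabp4, which rose, is also in the mature adipocyte list, and which cells carried these changes was not tested. Among those that rose were Pparg, the nuclear receptor of adipogenesis (41.2 ± 0.749 to 54.7 ± 3.73 FPKM), Cd36, a fatty acid transporter (945 ± 31.5 to 1279 ± 44.0 FPKM), and Lpl, lipoprotein lipase (1358 ± 27.8 to 1776 ± 47.0 FPKM). Icam1, an adhesion molecule used to sort committed preadipocytes, fell from 26.0 ± 0.939 to 17.5 ± 0.388 FPKM (limma adjusted p = 0.000169), and Sparcl1 from 30.2 to 25.6 FPKM. The split depended on scaling, with 4 higher and 4 lower on the TPM scale and with the authors' factor removed, and 3 and 4 after quantile normalization.

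F3 encodes tissue factor (CD142), the cell-surface starter of coagulation. It stood at 142, 143 and 139 FPKM in the controls, 118, 106 and 117 FPKM at 50 µM and 89.0, 92.5 and 91.6 FPKM at 100 µM. The 3 doses did not overlap. At 100 µM F3 was 35.5% below the control mean, and the log2 fold change was -0.63 ± 0.0487 (adjusted p = 2.92e-05 in limma). Meox2 encodes a homeobox factor of mesodermal cells. Its levels were 7.25, 7.84 and 7.38 FPKM in the controls, 5.96, 5.88 and 6.74 FPKM at 50 µM and 4.85, 5.80 and 4.90 FPKM at 100 µM. Both treated doses were below all controls, and each 100 µM library was below each 50 µM library. At 100 µM Meox2 was 30.8% below the control mean, and the log2 fold change was -0.46 ± 0.0743 (adjusted p = 0.00141 in limma). F3 (MGP_C57BL6NJ_G0028249) lies on chromosome 3, 128415685 to 128427291, plus strand, and Meox2 (MGP_C57BL6NJ_G0020086) on chromosome 12, 36371865 to 36447757, plus strand. Their upstream windows, printed above, share the GC box only.

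The list of markers of adipogenesis-regulatory cells, the F3-positive stromal subset, had 9 tested genes, of which 4 fell and 1 rose at 100 µM. These include F3 and Meox2, and of the other 7 genes 2 fell and 1 rose. Among all tested genes 15.6% were called lower and 18.3% higher. Besides F3 and Meox2, Fmo2, a flavin monooxygenase, fell from 39.6 ± 3.36 to 25.7 ± 1.56 FPKM, and Gdf10, a BMP-family ligand, from 43.2 ± 1.94 to 29.4 ± 1.63 FPKM. Abcg1, a cholesterol exporter, rose from 14.8 ± 1.10 to 19.6 ± 0.392 FPKM (limma adjusted p = 0.000652). Mgp (19.9 to 16.2 FPKM) did not pass as deposited (adjusted p = 0.128).

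In the tissue factor pathway, 7 of 11 genes were tested, F3 among them, and all 7 fell at 100 µM, with a median of -0.53. F2r, the thrombin receptor, fell from 23.4 ± 1.03 to 14.6 ± 1.24 FPKM, and Thbd, thrombomodulin, from 9.55 ± 0.896 to 6.38 ± 0.182 FPKM. Tfpi, the inhibitor of the tissue factor complex, fell from 20.6 ± 0.362 to 17.2 ± 0.940 FPKM. The count of 7 held on the TPM scale, after quantile normalization, with the authors' factor removed and with voom. At 50 µM, where F3 alone of the 7 passed, F2r was at 24.3 FPKM.

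Fap encodes fibroblast activation protein, a surface serine protease of the dipeptidyl peptidase family and the closest relative of Dpp4. It measured 4.24, 3.48 and 3.08 FPKM in the controls, 2.94, 2.65 and 3.02 FPKM at 50 µM and 3.67, 3.81 and 3.33 FPKM at 100 µM. The 50 µM libraries were below all others, and the 100 µM libraries overlapped the controls. At 100 µM the log2 fold change was 0.01, with a 95% confidence interval of -0.21 to 0.23 (limma adjusted p = 0.958). At 50 µM it was -0.24, without passing (adjusted p = 0.291, and 0.345 without 50 µM library 3). Between the treated doses it was 0.25 higher at 100 µM (adjusted p = 0.0896, and 0.120 without 50 µM library 3). This difference passed in 2 of 18 alternatives, without control library 1 (0.0469) and with voom (0.0353). Fap (MGP_C57BL6NJ_G0026189, chromosome 2, 64010754 to 64088502, minus strand) and Dpp4 are neighbours on the same strand, 91593 bases apart, with Gcg, listed at 0 in every library, and 2 lincRNA genes between them. Of the 4 other tested peptidase genes of this family, Dpp7, Dpp8, Dpp9 and Prep, none passed at 100 µM, with log2 fold changes from -0.09 to 0.06, although Dpp9 was called lower on the TPM scale (adjusted p = 0.0266).

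The comparison of 50 µM with 0 µM asks how much of the change is present at the lower dose. Pdgfra and F3 were the 2 of 8 tested markers that fell, and 0 rose, where 0.435% of all tested genes were called lower and 0.356% higher. Pdgfra was 22.5% below the control mean, and the log2 fold change was -0.36 ± 0.0448 (adjusted p = 0.0253 in limma). F3 was 19.5% below, and the log2 fold change was -0.31 ± 0.0487 (adjusted p = 0.0279 in limma). Cd34 (-0.26), Fap (-0.24), Meox2 (-0.24), Ly6a (-0.14), Pi16 (-0.13) and Pdgfrb (-0.07) did not pass, and the 8 had a median of -0.24 against 0.01 over all genes. Both calls depended on single libraries. Without 50 µM library 3, which stood apart, the adjusted p was 0.0615 for Pdgfra and 0.0637 for F3. Without control library 1, 2 or 3 it was 0.101, 0.0977 and 0.0833 for Pdgfra and 0.111, 0.117 and 0.0948 for F3. Without 50 µM library 2 it was 0.0985 for each gene. F3 also missed the threshold without 50 µM library 1 (0.0511) or 100 µM library 2 (0.0543). The log2 fold changes stayed between -0.39 and -0.33 for Pdgfra and between -0.36 and -0.26 for F3 under all alternatives. Over all genes the split was 45 higher and 55 lower as deposited and 33 and 74 after quantile normalization.

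From 50 to 100 µM, Ly6a, Pdgfrb, F3 and Pdgfra fell, 4 of the 8 tested markers, against 12% of all tested genes called lower and 13.2% called higher. The log2 fold changes were -0.74 ± 0.0974 for Ly6a (limma adjusted p = 0.000819), -0.38 ± 0.0405 for Pdgfrb (0.000351), -0.32 ± 0.0487 for F3 (0.00184) and -0.31 ± 0.0448 for Pdgfra (0.00125). Without 50 µM library 3 these 4 were still called. Meox2 was at -0.22 (adjusted p = 0.0585), and 3 of 18 alternatives called it. It passed without 100 µM library 2 (0.0233) or on the TPM scale (0.0156), but not without 50 µM library 3 (-0.17, adjusted p = 0.171). Cd34 was at -0.05, with an interval of -0.21 to 0.10. Over all genes 1663 were higher and 1510 lower, against 1060 and 2031 on the TPM scale and 1102 and 2180 with the authors' factor removed.

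The share of the log2 difference between 0 and 100 µM that was present at 50 µM is given per marker, as a description without an interval. It was 53.5% for Pdgfra, 49.8% for F3 and 52.1% for Meox2. For Ly6a it was 15.6% and for Pdgfrb 15.1%, while Cd34 stood at 83.1%. Without 50 µM library 3, in which Ly6a was within the control range, the share was 24.5% for Ly6a, 14.1% for Pdgfrb and 94.6% for Cd34, and 49.9%, 53.3% and 63.8% for Pdgfra, F3 and Meox2. Differences between genes in this share were not tested. The test of 50 µM against the midpoint of 0 and 100 µM called 0 of the 8 markers. Of these, 3 (Ly6a, Pdgfrb and Fap) had an unadjusted limma p below 0.05, as had 2281 of the 12635 tested genes. Over all genes the midpoint test called 0.499% lower and 0.989% higher after adjustment. Ly6a was 0.30 ± 0.0843 above the midpoint (limma adjusted p = 0.106) and Pdgfrb 0.16 ± 0.0351 above it (0.0611). Fap was 0.25 below it (0.163). Leaving out 50 µM library 3, these became 0.22 for Ly6a (limma adjusted p = 0.306), 0.16 for Pdgfrb (0.175) and -0.27 for Fap (0.280). Pdgfra, F3 and Meox2 lay within 0.03 of the midpoint, with intervals of -0.11 to 0.06, -0.09 to 0.10 and -0.15 to 0.14, and without that library Meox2 was 0.06 below it. Pi16 was 0.01 above it, with an interval of -0.32 to 0.34. Voom on rebuilt reads called Ly6a (0.00864) and Pdgfrb (0.0255) above the midpoint, and the split over all genes moved from 125 higher and 63 lower to 261 and 51 on the TPM scale and 262 and 53 with the authors' factor removed.

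Other stromal surface genes were followed in a list of 14, of which 12 were tested and Lrp1 was not analysed here. At 100 µM 9 fell and 1 rose, with a median of -0.32. Thy1, the CD90 antigen, went from 153 ± 11.7 FPKM without alginate through 154 FPKM to 97.9 ± 7.36 FPKM at 100 µM (limma adjusted p = 0.000293). Cd44, the hyaluronan receptor, fell from 13.0 ± 0.586 to 8.71 ± 0.382 FPKM, and Vcam1, an adhesion molecule, from 13.8 ± 0.181 to 10.1 ± 0.366 FPKM. Alcam, also an adhesion molecule, rose from 4.41 ± 0.0319 to 6.53 ± 0.323 FPKM (limma adjusted p = 0.000120). None of the 12 passed at 50 µM as deposited, and Alcam did with the authors' factor removed (adjusted p = 0.0478). Voom on rebuilt reads called Alcam higher at 50 µM (adjusted p = 0.0166). It also called Cd248, another gene of the list, lower (log2 fold change -0.30, adjusted p = 0.0135).

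Among 13 tested mesenchymal lineage factor genes besides Meox2, 6 fell and 1 rose at 100 µM, with a median of -0.11. The limb and skeletal homeobox gene Prrx1 fell from 43.6 ± 1.59 to 31.6 ± 0.436 FPKM, and Tbx15, a T-box factor of subcutaneous fat, from 26.1 ± 0.786 to 18.2 ± 1.31 FPKM. Osr1, a zinc-finger factor of connective tissue progenitors, fell from 18.2 ± 1.49 to 13.0 ± 0.669 FPKM. Nr2f2, an orphan nuclear receptor, fell from 19.7 ± 0.467 to 17.2 ± 0.473 FPKM. Ebf2, a factor of preadipocytes, rose from 7.89 to 9.30 FPKM (limma adjusted p = 0.0280) but missed the threshold on the TPM scale (0.184) and without the authors' factor (0.0946). The plot of list genes shows these groups side by side.

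**Figure D4:**
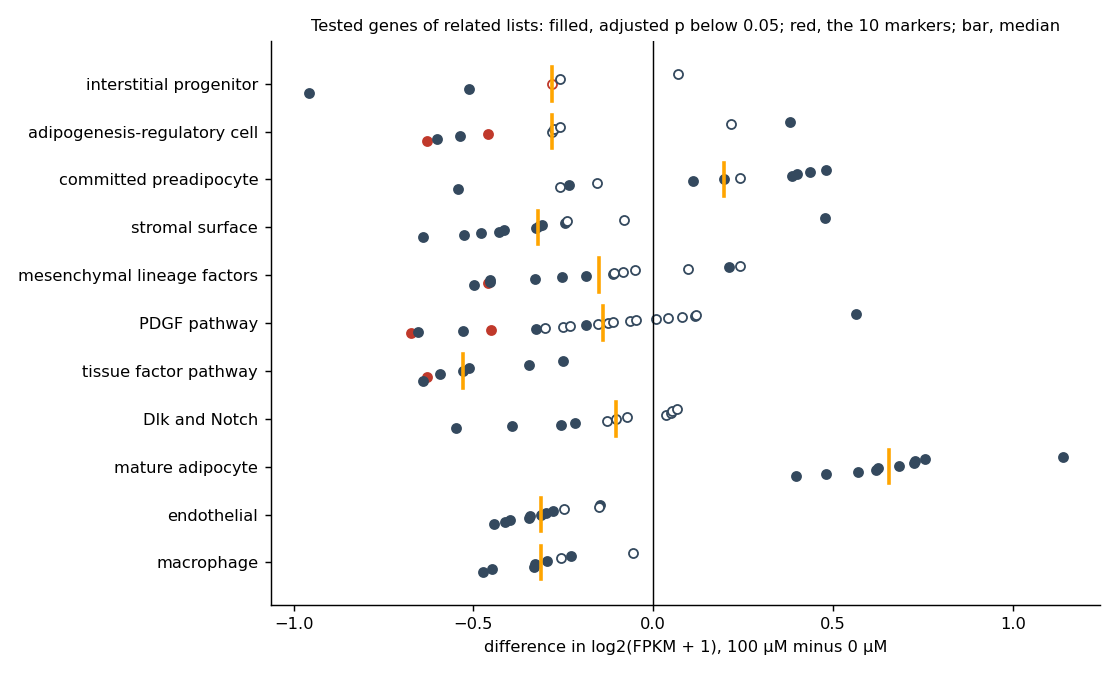
Difference in log2(FPKM + 1) between 100 µM and 0 µM for each tested gene (point) of 11 lists, with the list median as an orange bar. Filled points have an adjusted p below 0.05 and red points are the markers under study; all 7 tissue factor pathway genes lie left of 0 and all 10 mature adipocyte genes right of 0.

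Each tested marker was set beside 7161 protein-coding genes with a mean of at least 5 FPKM, by the root mean square difference of centred log2(FPKM + 1) over the 9 libraries. The nearest to Pdgfra were Fbn1 (0.0497; 187 FPKM at 0 µM, 151 at 50 µM and 119 at 100 µM), Slc39a14 and Lgi2, against a median difference of 0.306 over all candidates. Adam9 lay nearest to Pdgfrb (0.0221; 118, 113 and 84.5 FPKM), before Col18a1 and Disp1. For Ly6a they were Tmem45a (0.0722; 34.2, 33.6 and 18.4 FPKM), Vdr and Kcne4. F3 had Aebp1 (0.0581; 73.9, 62.2 and 49.1 FPKM), Pros1 and Adamts5, and Meox2 had Aldh1a1 (0.0465; 76.0, 65.6 and 56.0 FPKM), Ctsh and Efemp1. Cd34 was nearest to Dpep1 (0.0395; 229, 198 and 188 FPKM), Pcolce and Asap3. Fap, lowest at 50 µM, was nearest to Tnfaip3 (0.0668; 5.44, 4.62 and 5.62 FPKM), Fam32a and Gstk1. Pi16 had the most distant neighbours, Ccl8 (0.0918), Rpl27a and Rasl11a. These are likenesses over 9 libraries that share the dose groups, given with no test.

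Markers of other cells also changed at 100 µM, in both directions. Mature adipocyte genes rose at 100 µM, 10 of 10 tested, with a median of 0.65, and their summed level was 5015 to 5145 FPKM at 0 µM, 5460 to 5919 FPKM at 50 µM and 7491 to 8063 FPKM at 100 µM. After quantile normalization 9 of the 10 passed, Fabp4 being lost. The 10 progenitor markers summed to 751 to 812, 649 to 748 and 433 to 496 FPKM at these doses, most of it Ly6a. Of 11 tested endothelial genes 9 fell at 100 µM, among them Pecam1 (31.0 ± 1.49 to 24.8 ± 0.673 FPKM) and Cdh5 (51.7 ± 2.25 to 41.9 ± 2.66 FPKM), with sums of 171 to 188, 168 to 181 and 147 to 150 FPKM. Of 8 tested macrophage genes 6 fell, among them Cd68 (37.6 ± 1.82 to 29.7 ± 1.62 FPKM), with sums of 211 to 236, 228 to 236 and 171 to 178 FPKM. Ptprc, the common leukocyte antigen, stayed under 1 FPKM at every dose mean. Of 10 tested pericyte and smooth muscle genes 2 fell, the contractile genes Acta2 (177 ± 16.1 to 114 ± 7.12 FPKM) and Tagln, and Cspg4 and Mcam rose, though Mcam did not pass on the TPM scale. Mesothelial genes Krt19 and Gpm6a fell, with Upk1b at 0 in every library, and no lymphocyte gene reached the filter, with Cd3g and Nkg7 among those at 0 throughout. Of 5 Schwann cell genes 2 were tested, and Ngfr, the p75 neurotrophin receptor gene, fell at 100 µM, with sums of 12.1 to 13.2, 9.35 to 12.3 and 9.71 to 11.4 FPKM. The part of these cells in the marker results was not tested.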

How the data were processed

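The authors deposited 1 table of FPKM values per gene for the 9 libraries, per the file headers. Libraries were made from 1.3 µg of total RNA with the SMARTER mRNA-Seq kit and read as paired ends, per the labels' protocols. Aligner, counter and use of strand: not given in the sources used here, and a gene that overlaps another may hold some of its reads. The submitters' processing notes name GRCm38 and mm10, whereas the deposited table has identifiers and coordinates of the C57BL/6NJ strain, left unconverted. FPKM times gene length gave whole reads for 100% of values (tolerance 0.01 read). The total each value was scaled by was 1.01 to 1.03 times the reads at 0 µM, 1.02 at 50 µM and 0.969 to 0.976 at 100 µM.

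A pseudocount of 1 was added before the log2 step, which understates fold changes of low genes, and limma 3.58.1 was run in R 4.3.3. The 12635 genes that reached 1 FPKM in 3 or more libraries were tested in 1 model with a mean per dose and trended variances. Tests were two-sided with Benjamini-Hochberg adjustment over all tested genes. Comparisons were each pair of doses and 50 µM against the midpoint of the others. They share libraries, so their results are not independent. The procedure was tested on simulated data whose changes were larger than that of any tested marker, so smaller changes were not covered. Alternatives were a pseudocount of 0.1, no filter, TPM, quantile normalization, the authors' factor removed, voom on rebuilt reads, the 2 compared groups alone, no variance trend, a replicate block and each library left out.

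The markers and lists were chosen with earlier results of these data known. Named genes are the 10 markers, up to 4 other genes per list with the smallest limma p at 100 µM against 0 µM, and the 3 genes most like each tested marker. Some genes that this rule takes in are not reported here. Others named beside counts were chosen after their values were seen. No protein sequence was used here.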

Additional observations from a re-analysis of the deposited data

How the results depend on the processing

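At 100 µM against 0 µM, Ly6a, Pdgfra, F3, Pdgfrb, Meox2 and Cd34 were called lower under all 18 alternatives, with the highest adjusted p for Cd34 (0.0310, without control library 2), and with no filter Dpp4 made 7. At 50 µM against 0 µM the count of 2 fell to 1 with no filter (Pdgfra) and to 0 with the 2 groups alone, with no variance trend and with the replicate block, and lay between 0 and 2 with 1 library left out. Against the midpoint, where 0 were called, 1 was called after quantile normalization (Ly6a), 1 with the authors' factor removed (Pdgfrb) and 2 with voom (Ly6a and Pdgfrb). The 4 calls of 100 µM against 50 µM were made under all 18 alternatives. No log2 fold change of a called marker reversed. The cause of these differences was not tested. Deviations from the dose means correlated at -0.0941 to 0.0412 between same-numbered libraries and at -0.0814 to 0.0983 between the others. No pairing by replicate number was seen, but 3 libraries per dose cannot show that the design was unpaired. Over all genes, 50 µM against 0 µM ranged from 0 higher and 0 lower (among others with the block) to 169 and 179 with voom, against 45 and 55. The midpoint comparison ranged from 0 and 0 without control library 1 or 3 to 443 and 246 with voom, against 125 and 63. From 50 to 100 µM, 1060 were higher on the TPM scale and 1102 with the factor removed, against 1663. Few reads stand behind Dpp4 (94, 34 and 29 per dose) and Dlk1 (107, 171 and 136).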

Other observations

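Ngfr and Inmt, both outside the marker set, had their lowest mean at 50 µM. Ngfr, taken from the list of Schwann cell markers, was at 9.76 ± 0.655 FPKM at 0 µM, 6.87 FPKM at 50 µM and 7.80 ± 0.159 FPKM at 100 µM (SD, n = 3), and was called lower at both doses against 0 µM (limma adjusted p = 0.0282 at 50 µM and 0.0123 at 100 µM). It was also below the midpoint of 0 and 100 µM (limma adjusted p = 0.0489), though not on the TPM scale (0.0624). Without 50 µM library 3 the adjusted p was 0.0802 at 50 µM against 0 µM and 0.175 against the midpoint. The amine methyltransferase gene Inmt had means of 0.988, 0.379 and 1.33 FPKM at 0, 50 and 100 µM and did not pass at either dose against 0 µM (limma adjusted p = 0.222 and 0.416). Between the treated doses Inmt was 0.76 higher at 100 µM on the log2 scale (limma adjusted p = 0.0176), and 0.69 higher without 50 µM library 3 (0.0563). Its 50 µM libraries lay at 0.195 to 0.705 FPKM, so Inmt passed the filter through the other doses only. The filter thus favoured a low value at 50 µM, and no conclusion is drawn from the p-values of Inmt. These genes were chosen after their values were seen.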
